A study of Homo sapiens with 6 samples.

Results

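The 60 genes described here make up the machinery that licenses, starts and runs DNA replication, together with the E2F and cyclin genes that control entry into S phase. They were chosen by symbol from a fixed list, 60 symbols were found among the 60569 gene names of the table, and each had 1 row. All 60 passed the filter on low values (3 or more libraries at an FPKM of at least 1), as did 13185 genes in all. FPKM counts fragments per length of transcript and per size of library, so levels can be compared between genes. MDA-MB-453, the line sequenced, is an established line of human breast carcinoma cells. In 3 control libraries the cells had received a control vector, and in 3 overexpression libraries a construct for ZNF207, the gene of a zinc finger protein (BuGZ) known to bind BUB3, a mitotic checkpoint protein. The design text calls the 3 libraries of each group biologically independent. How long after transfection RNA was taken, and whether lines or clones were selected, is not stated in these sources.

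Replication is prepared in G1, when the origin recognition complex (ORC), CDC6 and CDT1 load the ring-shaped MCM2-7 helicase onto origins, and geminin (GMNN) blocks a repeat of this step later in the cycle. At the start of S phase the kinase CDC7 with its partner DBF4, and the kinase CDK2 with cyclin E, turn the loaded ring into the active CMG helicase by adding CDC45 and the GINS complex. The polymerases alpha, delta and epsilon then copy the strands with the sliding clamp PCNA, which the RFC complex loads. Many of these genes are known targets of E2F transcription factors, which the retinoblastoma protein RB1 and its relative RBL1 (p107) hold back until the cyclin-dependent kinases inactivate them.

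ZNF207 stood at 69.2, 67.0 and 63.7 FPKM in control replicates 1 to 3 and at 885, 786 and 750.0 FPKM in overexpression replicates 1 to 3 (log2 change 3.58, SE 0.07, limma adjusted p = 4.03e-09). FPKM summed to 589360 to 612711 per library, and 13061 to 13231 genes reached an FPKM of 1. The 10 luminal breast epithelial markers had a summed FPKM of 5836 to 6008 (controls) and 5725 to 5858 (overexpression), and all 10 were detected in every library. All 3 basal and all 3 endothelial markers stayed under 1 FPKM, as did 3 of 4 immune and 4 of 5 fibroblast markers. The exceptions were CD68, above 1 FPKM in 2 of 6 libraries, and COL1A1, at 7.98 to 11.3 FPKM, whose ranges in the groups overlapped.

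None of the 60 replication and G1/S genes passed the test, yet 51 of them had an estimate below 0. By limma 0 were lower and 0 higher at an adjusted p under 0.05, where 0.159% of all 13185 genes were lower and 0.0531% higher (0.212% together). At an unadjusted p under 0.05, 17 genes (28.3%) were lower and 1 (1.67%) was higher, beside 7.03% and 5.08% of all genes. The 3 overexpression libraries lay below all 3 controls for 18 genes (30%) and above them for 2 (3.33%), against 10.4% and 7.61% of all genes. The median log2 change, taken on log2(FPKM + 1), was -0.12, beside -0.01 over all genes, and 85.0% of the estimates were below 0 against 52.4% of all genes. These are counts over genes that share the same 6 libraries, and no test of the list was made. The count of 17 was 8 without control replicate 2, 10 without overexpression replicate 2, 7 without overexpression replicate 3 and 11 without a variance trend. In bulk RNA, fewer cells in the phase in which a gene is expressed and less of its RNA per cell cannot be told apart.

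The estimates were small. They ran from -0.36 to 0.21, while the smallest change among the 28 called genes of the transcriptome was 0.40. For 57 of the 60 genes the 95% interval lay within 0.5 of 0 on the log2 scale. It lay wholly below 0 for 17 genes and wholly above 0 for ORC5. The smallest adjusted p was that of RFC4 (0.137), so no gene lay just inside the threshold. With 3 against 3 libraries an exact two-sided permutation test of 1 gene cannot give a p below 0.1. It gave 0.1 for GINS2, RFC4, PRIM1 and ORC5, as it must for any gene whose groups do not overlap.

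**Figure D1:**
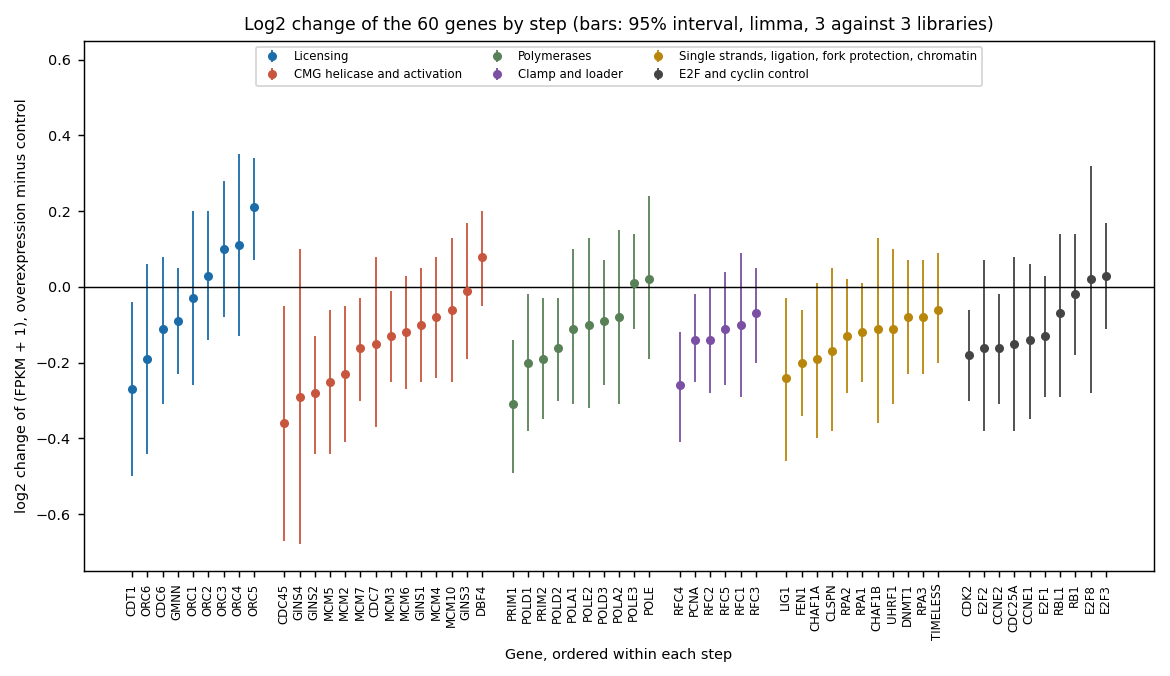
Log2 change of (FPKM + 1) between overexpression and control libraries for the 60 genes, grouped by step and ordered by size, with the 95% interval from limma (3 against 3 libraries). Most points lie below 0, from -0.36 (CDC45) to 0.21 (ORC5), and the genes above 0 include ORC2 to ORC5.

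The libraries of one group were not alike. The median deviation of the 60 genes from their own mean over the 6 libraries was 0.045, 0.065 and 0.054 in control replicates 1 to 3. In overexpression replicates 1 to 3 it was -0.008, -0.054 and -0.105, so replicate 1 lay nearest to the controls and replicate 3 farthest. Overexpression replicate 3 held the lowest of the 6 values for 28 genes and replicate 2 for 19, while replicate 1 did so for 8. ZNF207 itself was highest in replicate 1 and lowest in replicate 3. Without replicate 3 the median log2 change was -0.096, and without replicate 1 it was -0.140.

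**Figure D2:**
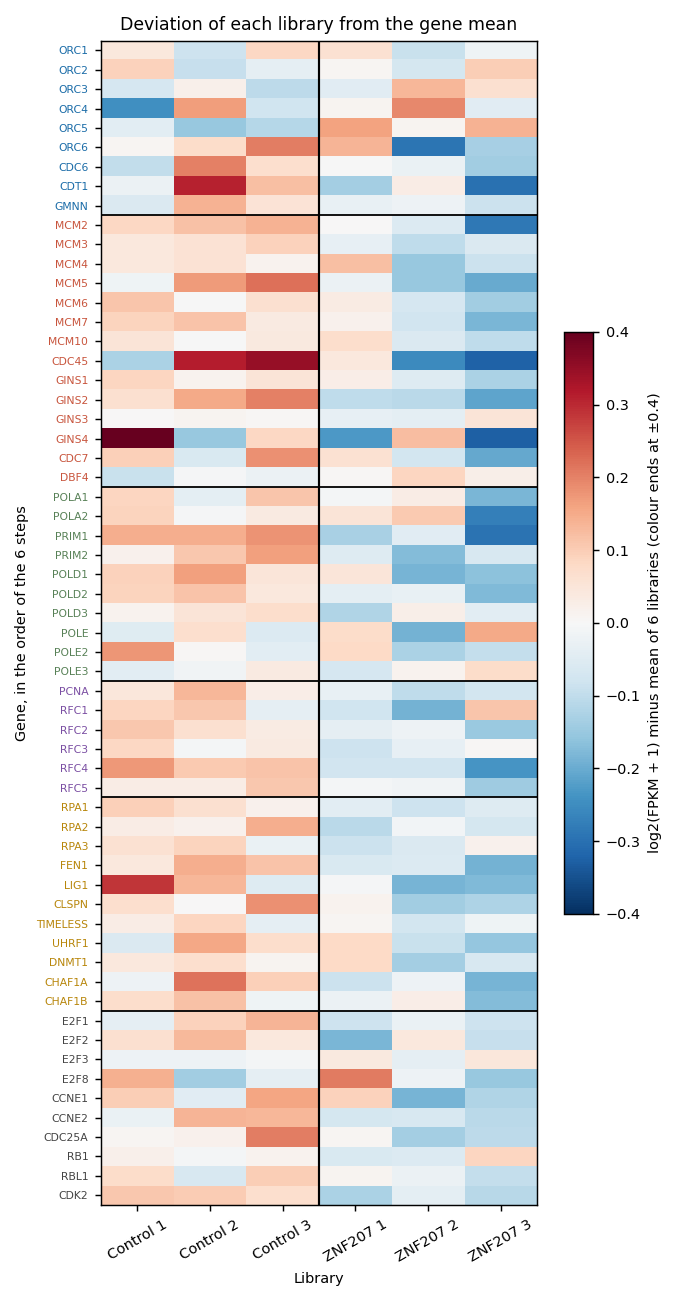
Deviation of log2(FPKM + 1) in each library from the mean of the 6 libraries, with 1 row per gene in the order of the steps and 1 column per library (red: above the mean, blue: below, colour ends at ±0.4). Control columns are mostly red, overexpression replicate 1 is pale (median -0.008) and replicate 3 is the bluest (median -0.105), while ORC5 shows the opposite direction.

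Levels spanned a wide range. MCM7 was the most abundant, with a mean of 167 FPKM in controls (96th percentile of the genes tested), followed by PCNA at 132 FPKM and MCM4 at 86.7 FPKM. The lowest were E2F8 at 3.84 FPKM, CHAF1B at 4.42 FPKM and ORC1 at 5.58 FPKM. The plot of mean levels sets both groups side by side.

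**Figure D3:**
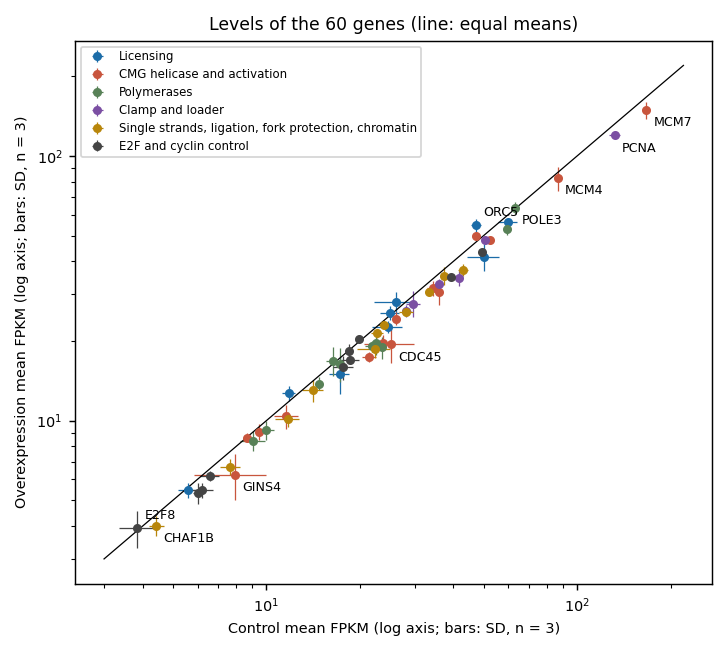
Mean FPKM of the 60 genes in controls (x, log axis) and overexpression libraries (y, log axis), with SD bars (n = 3 each), colours for the 6 steps and a line of equal means. Points follow the line over the range from E2F8 (3.84 and 3.93 FPKM) to MCM7 (167 and 149 FPKM), and most lie slightly below it.

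E2F words, given below, were present in 49% of the promoters found for these genes. Known E2F targets were among the genes chosen, so this share does not stand apart from the choice. The stretches below come from genes that have such a word. The RefSeq table (GRCh38.p14) holds a promoter, 250 bases before to 50 after the start, for 51 of the 60 genes. It was searched on both strands for the 4 E2F words TTTCCCGC, TTTCGCGC, TTTGCCGC and TTTGGCGC, some of which overlap one another when they lie on opposite strands. At least 1 word was present in 25 of the 51 promoters (49%), against 542 of 9704 promoters of tested genes (5.59%) and 908 of all 27305 (3.33%). In the lists of other genes described later, the share was 28.6% for dNTP supply and 20% for other replication factors. It was 12.5% for G2/M genes and 9.52% for other E2F, pocket protein and G1 cyclin genes. Of the 33 matches, 23 began within 100 bases before the start. Shown are 30-base windows on the gene's strand, 5′ to 3′, with E2F words in capitals, for genes of each step whose values are given later.
CDT1 (chr16:88803743-88803772, plus strand): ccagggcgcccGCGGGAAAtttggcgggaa
CDC6 (chr17:40287875-40287904, plus strand): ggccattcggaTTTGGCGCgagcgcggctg
GINS2 (chr16:85688967-85688996, minus strand): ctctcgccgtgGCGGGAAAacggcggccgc
MCM2 (chr3:127598402-127598431, plus strand): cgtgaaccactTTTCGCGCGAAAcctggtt
MCM3 (chr6:52284728-52284757, minus strand): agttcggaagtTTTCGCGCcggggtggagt
MCM7 (chr7:100101388-100101417, minus strand): ggggggcgacgTTTCGCGCcaatttcggtt
POLA2 (chr11:65261898-65261927, plus strand): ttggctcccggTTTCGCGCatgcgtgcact
PCNA (chr20:5126663-5126692, minus strand): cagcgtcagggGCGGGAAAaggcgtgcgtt
RFC3 (chr13:33818083-33818112, plus strand): atttggagctcGCGGGAAAacttgtctctg
UHRF1 (chr19:4909476-4909505, plus strand): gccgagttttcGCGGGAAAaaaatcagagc
E2F1 (chr20:33686387-33686416, minus strand): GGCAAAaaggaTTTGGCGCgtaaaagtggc
RBL1 (chr20:37095995-37096024, minus strand): tTTTCGCGCgcTTTGGCGCaggtggttgtg

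In MCM2 a pair of words on opposite strands overlaps to form a palindrome, and the E2F1 window opens with the end of another word. MCM6 held 4 words, the most of these promoters, of which 2 lie in the stretch shown, and the phosphatase gene CDC25A held 1. The 120 bases just before their starts are shown in full, because neither stretch touches an exon in GENCODE v29.
MCM6 (chr2:135876444-135876563, minus strand): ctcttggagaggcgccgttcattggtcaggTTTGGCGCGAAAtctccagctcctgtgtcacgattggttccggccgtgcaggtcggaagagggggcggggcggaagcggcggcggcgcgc
CDC25A (chr3:48188418-48188537, minus strand): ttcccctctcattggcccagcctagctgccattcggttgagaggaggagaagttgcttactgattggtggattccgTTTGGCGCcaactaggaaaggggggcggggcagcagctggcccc

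The estimates did not divide along the presence of a word in the promoters searched. Only the first promoter listed for each gene name was used. For RB1, counted as without a word, the stretch before the start (chr13:48476200-48476449) lies inside the gene (48303726 to 48599436, plus strand). The annotated start of RB1 was thus not searched. Other searched stretches also lay inside the annotated gene. Among them were those of GINS3, DNMT1 and UHRF1, counted with a word, and of CDC45 and RFC4, counted without. Of the 25 genes with an E2F word 22 had an estimate below 0 (median -0.11), and of the 26 with a promoter and no word 21 did (median -0.12). Among all tested genes the median was -0.02 for the 542 with a word and -0.01 for the 9162 without. GINS2 and CDT1 carried a word, whereas RFC4, PRIM1, CDC45 and FEN1 had none of these words in the window, which says nothing about other sites. The word TTTGAA, known from the promoters of G2/M genes, was found in 2 of the 51 promoters (3.92%), in 9 of 16 promoters of the G2/M genes listed for comparison (56.2%) and in 9.44% of those of tested genes.

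Licensing genes were divided, with 5 of 9 estimates below 0 and a median of -0.03. ORC5, a subunit of the origin recognition complex on chromosome 7 (104126341 to 104208047, minus strand, GENCODE v29), stood at 49.3, 45.7 and 46.9 FPKM in controls and at 56.9, 51.2 and 56.1 FPKM in overexpression libraries. The groups did not overlap, and the log2 change was 0.21 (SE 0.06, adjusted p = 0.229), the highest estimate of the 60 genes. Over 17 alternatives it ran from 0.18 to 0.25. ORC4 stood at 22.6, 30.4 and 25.5 FPKM in controls and 27.2, 31.0 and 26.1 FPKM in overexpression libraries, with overlapping groups and a log2 change of 0.11 (SE 0.11, adjusted p = 0.739). ORC2 and ORC3, 2 further subunits of the core complex, had log2 changes of 0.03 and 0.10. ORC1, the subunit whose level is known to vary over the cell cycle, and ORC6 were at -0.03 and -0.19. ORC1 stood at 5.71, 5.15 and 5.90 FPKM in controls and 5.80, 5.12 and 5.44 FPKM in overexpression libraries (SE 0.10, adjusted p = 0.941), so the groups overlapped. ORC6 stood at 16.1, 16.9 and 18.6 FPKM in controls and at 17.7, 12.9 and 14.5 FPKM in overexpression libraries, where replicate 1 lay within the control range (adjusted p = 0.534). The 6 ORC genes summed to 132, 134 and 133 FPKM in controls and to 145, 138 and 142 FPKM in overexpression libraries. The ratio of ORC5 to ORC1 was 8.63, 8.88 and 7.95 in controls and 9.81, 9.99 and 10.33 in overexpression libraries. This pair was picked after the values were seen.

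The loading factors lay on the other side of 0. CDT1, which brings MCM2-7 to origins, stood at 44.7, 56.5 and 49.5 FPKM in controls and at 41.3, 46.4 and 36.8 FPKM in overexpression libraries (log2 change -0.27, SE 0.10, adjusted p = 0.328). Overexpression replicate 2 lay above control replicate 1, so the groups overlapped. CDC6, the ATPase that works with ORC in loading, stood at 21.9, 27.2 and 24.7 FPKM and at 23.5, 23.1 and 21.3 FPKM (-0.11, SE 0.09, adjusted p = 0.652). Geminin (GMNN), the inhibitor of CDT1, stood at 55.7, 63.9 and 60.2 FPKM and at 56.8, 57.2 and 54.6 FPKM (-0.09, SE 0.06, adjusted p = 0.615). The groups overlapped for both genes, and control replicate 1 was the lowest control for all 3. The ratio of CDT1 to GMNN was 0.80, 0.88 and 0.82 in controls and 0.73, 0.81 and 0.67 in overexpression libraries, again with overlap.

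Genes of the CMG helicase and its activation gave 13 of 14 estimates below 0 (median -0.14). Of these genes 6 (42.9%) were lower at an unadjusted p under 0.05, beside 7.03% of all genes. Groups did not overlap for 5 lower genes (35.7%, beside 10.4% of all genes) and 1 higher gene (7.14%, beside 7.61%). All 6 subunits of the MCM2-7 ring were below 0, from -0.25 (MCM5) to -0.08 (MCM4). MCM2 stood at 35.1, 35.9 and 36.5 FPKM in controls and at 33.1, 31.8 and 26.9 FPKM in overexpression libraries (log2 change -0.23, SE 0.08, adjusted p = 0.293). MCM5 stood at 21.3, 24.4 and 25.3 FPKM and at 21.2, 19.3 and 18.6 FPKM (-0.25, SE 0.08, adjusted p = 0.270). The groups did not overlap for either, though control replicate 1 and overexpression replicate 1 were close for MCM5. MCM7 stood at 168, 171 and 162 FPKM and at 159.8, 149.8 and 139 FPKM (-0.16, SE 0.06, adjusted p = 0.323), again without overlap. MCM3 was likewise separate (-0.13, adjusted p = 0.372), whereas MCM6 (-0.12) and MCM4 (-0.08) overlapped. MCM7 carries MIR25, MIR93 and MIR106B on its strand and shares its listed locus with other genes, so its value is uncertain.

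The ring is built from 1 copy of each subunit, but the transcripts stood at unequal levels. The order of control means was MCM7 at 167 FPKM, MCM4 at 86.7, MCM3 at 52.5, MCM2 at 35.8, MCM6 at 34.3 and MCM5 at 23.7 FPKM. MCM2 and MCM6 overlapped in controls, at 35.1 to 36.5 and 32.9 to 35.6 FPKM, and the other neighbours did not. The ratio of MCM7 to MCM5 was 7.11 ± 0.74 in controls and 7.59 ± 0.16 in overexpression libraries (SD, n = 3 each), a difference within the spread of controls.

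Among the factors that join the ring, GINS2 had the clearest separation. It stood at 20.2, 21.5 and 22.3 FPKM in controls and at 17.9, 17.8 and 16.5 FPKM in overexpression libraries, and no library of one group reached the other. Its log2 change was -0.28 (SE 0.07, adjusted p = 0.145, ratio of means 0.81). GINS2 overlaps GSE1 on the opposite strand. GINS1 (-0.10) and GINS3 (-0.01) overlapped. The ratio of GINS2 to GINS1, picked after the values were seen, was 0.76, 0.85 and 0.85 in controls. In overexpression libraries it was 0.70, 0.73 and 0.72. GINS4 had the widest interval of the 60 genes (-0.68 to 0.10), with control replicate 1 at 10.2 FPKM and the other libraries at 5.31 to 7.63 FPKM. CDC45 had the lowest estimate of all 60, with 20.0, 27.5 and 28.2 FPKM in controls and 22.6, 18.2 and 17.3 FPKM in overexpression libraries (-0.36, SE 0.14, adjusted p = 0.333). Control replicate 1 lay within the overexpression range, and the log2 change over alternatives ran from -0.51 to -0.27. MCM10, which helps to start the helicase, stood at 9.65, 9.26 and 9.55 FPKM and at 9.80, 8.88 and 8.57 FPKM (-0.06, SE 0.08, adjusted p = 0.832).

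The 2 partners of the kinase that fires origins pointed in opposite directions. CDC7, the catalytic subunit, had a log2 change of -0.15 (95% interval -0.37 to 0.08) with overlapping groups. DBF4, its activator, stood at 45.5, 48.3 and 47.7 FPKM in controls and at 48.6, 51.5 and 49.3 FPKM in overexpression libraries. Its groups did not overlap, but by a small margin, and the log2 change was 0.08 (SE 0.06, adjusted p = 0.633).

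Polymerase genes gave 8 of 10 estimates below 0 (median -0.10). Primase, which lays the RNA primers, had the largest shift. Its catalytic subunit PRIM1 stood at 23.4, 23.4 and 24.0 FPKM in controls and at 19.2, 20.4 and 17.0 FPKM in overexpression libraries, without overlap (log2 change -0.31, SE 0.08, adjusted p = 0.145). The partner PRIM2 stood at 20.7, 22.1 and 23.0 FPKM and at 19.7, 18.0 and 19.5 FPKM, also without overlap (-0.19, SE 0.07, adjusted p = 0.317). PRIM1 overlaps NACA on the same strand, so fragments of the 2 genes may be shared. POLA1, the catalytic subunit of polymerase alpha, stood at 10.2, 9.27 and 10.4 FPKM and at 9.50, 9.76 and 8.30 FPKM (-0.11, SE 0.09, adjusted p = 0.693), with overlap. Its partner subunit POLA2 overlapped as well (-0.08, SE 0.10, adjusted p = 0.802).

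The polymerases of the 2 strands differed in their estimates, though this difference was not tested. For polymerase delta, the lagging-strand enzyme, all 3 subunits among the 60 genes were below 0 (median -0.16). Its subunit POLD2 stood at 60.0, 61.1 and 58.0 FPKM in controls and at 54.8, 55.1 and 49.7 FPKM in overexpression libraries, without overlap (log2 change -0.16, SE 0.06, adjusted p = 0.310). For polymerase epsilon, the leading-strand enzyme, 1 of the 3 subunits among the 60 genes was below 0 (median 0.01). Its catalytic gene POLE stood at 16.0, 17.4 and 15.9 FPKM and at 17.5, 14.4 and 18.5 FPKM (0.02, SE 0.10, adjusted p = 0.950), and its sign turned when overexpression replicate 1 or 3 was left out. POLE3 stood at 60.4 to 66.7 FPKM across the 6 libraries with overlapping groups. POLE3 is also a subunit of a chromatin remodelling complex. The further subunits POLD4 (-0.09) and POLE4 (-0.10), listed apart from the 60, were both below 0 with overlapping groups. The contrast between the enzymes thus covers only the subunits among the 60.

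All 6 clamp and clamp loader genes were below 0 (median -0.12). For 4 of them (66.7%) the groups did not overlap, all lower, beside 10.4% of all genes. RFC4, a small subunit of the clamp loader on chromosome 3 (186789880 to 186807058, minus strand), had the smallest p of the 60 genes. It stood at 42.8, 40.8 and 41.0 FPKM in controls and at 35.8, 35.8 and 32.0 FPKM in overexpression libraries (log2 change -0.26, SE 0.06, adjusted p = 0.137). Over 17 alternatives its adjusted p ran from 0.0780, with the replicate number as a block, to 0.368. RFC4 overlaps EIF4A2 on the opposite strand, and whether the counting used strand is not given in the sources used here. PCNA, the clamp, stood at 129.8, 138 and 128 FPKM and at 123, 117 and 119.5 FPKM (-0.14, SE 0.05, adjusted p = 0.324), with every overexpression library below every control. RFC2 stood at 37.0, 35.9 and 35.1 FPKM and at 33.4, 33.8 and 30.8 FPKM (-0.14, SE 0.06, adjusted p = 0.413), and RFC5 was separate as well (-0.11). RFC1 (-0.10) and RFC3 (-0.07) overlapped. The ratio of RFC3 to RFC4 was 1.22, 1.20 and 1.24 in controls and 1.30, 1.35 and 1.55 in overexpression libraries. It did not overlap between groups, but the pair was picked after the values were seen.

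**Figure D4:**
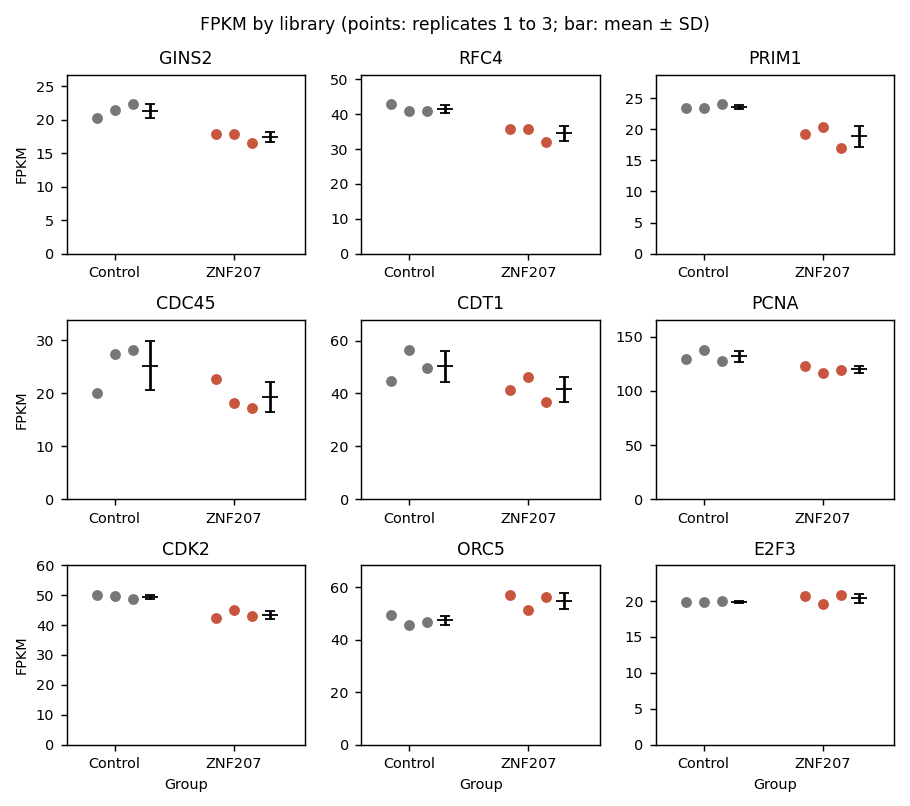
FPKM in each library for 9 of the genes (grey: control replicates 1 to 3, red: overexpression replicates 1 to 3, bars: mean ± SD, axes from 0). GINS2, RFC4, PRIM1, PCNA and CDK2 lie lower in all 3 overexpression libraries and ORC5 higher, CDC45 and CDT1 overlap, and E2F3 stays between 19.6 and 20.8 FPKM.

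Every one of the 11 genes for single strands, Okazaki fragments, fork protection and new chromatin had an estimate below 0 (median -0.12). Of these, 2 (18.2%) were lower at an unadjusted p under 0.05, beside 7.03% of all genes. FEN1, the nuclease that trims Okazaki fragments, stood at 41.1, 44.2 and 43.3 FPKM in controls and at 38.2, 38.4 and 34.9 FPKM in overexpression libraries, without overlap (log2 change -0.20, SE 0.06, adjusted p = 0.236). It overlaps FADS2 on the same strand. LIG1, the ligase that seals the fragments, stood at 24.9, 22.3 and 19.5 FPKM and at 20.2, 17.7 and 17.8 FPKM (-0.24, SE 0.10, adjusted p = 0.341). Its groups overlapped, since control replicate 3 lay below overexpression replicate 1. RPA1, the largest subunit of the single-strand binding protein, stood at 34.2, 33.4 and 32.3 FPKM and at 31.0, 30.1 and 30.8 FPKM (-0.12, SE 0.06, adjusted p = 0.452). RPA1 and RPA2 (-0.13) did not overlap between groups and RPA3 (-0.08) did.

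CHAF1A, the large subunit of the histone chaperone CAF-1, stood at 10.7, 12.8 and 11.7 FPKM in controls and at 10.2, 10.7 and 9.45 FPKM in overexpression libraries (log2 change -0.19, SE 0.09, adjusted p = 0.438). UHRF1, which guides the methyltransferase DNMT1 to replicated DNA, stood at 12.9, 15.1 and 14.2 FPKM and at 14.3, 12.6 and 12.0 FPKM (-0.11, SE 0.09, adjusted p = 0.682). Groups overlapped for both, as for CHAF1B (-0.11), DNMT1 (-0.08), the checkpoint mediator CLSPN (-0.17) and TIMELESS (-0.06), a fork protection factor.

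E2F and cyclin genes gave 8 of 10 estimates below 0 (median -0.14). CDK2, the kinase that pairs with cyclin E (chromosome 12, 55966769 to 55972784, plus strand), stood at 50.0, 49.8 and 48.6 FPKM in controls and at 42.4, 45.1 and 42.9 FPKM in overexpression libraries. No library of one group reached the other, and the log2 change was -0.18 (SE 0.05, adjusted p = 0.222). CDK2 overlaps PMEL on the opposite strand. CCNE2 stood at 36.4, 40.9 and 40.8 FPKM and at 35.3, 35.5 and 34.4 FPKM, without overlap (-0.16, SE 0.06, adjusted p = 0.347). CCNE1 stood at 18.0, 16.2 and 18.8 FPKM and at 17.9, 14.6 and 15.3 FPKM, with overlap (-0.14, SE 0.09, adjusted p = 0.578). By FPKM CCNE2 was the more abundant cyclin E transcript in every library, and the ratio of CCNE2 to CCNE1 was 2.24 ± 0.26 and 2.22 ± 0.23 (SD, n = 3 each). CCNE2 overlaps genes on the opposite strand, among them INTS8 and NDUFAF6, so its value is uncertain. CDC25A, the phosphatase that activates CDK2, stood at 5.84, 5.89 and 6.84 FPKM and at 5.84, 5.19 and 5.33 FPKM (-0.15, SE 0.10, adjusted p = 0.597).

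The activating E2F genes differed in level and estimate. E2F1 stood at 17.3, 19.0 and 19.6 FPKM in controls and at 16.7, 17.4 and 16.7 FPKM in overexpression libraries (log2 change -0.13, SE 0.07, adjusted p = 0.522). The groups overlapped only through control replicate 1. E2F2, at 5.33 ± 0.495 FPKM in overexpression libraries against 6.04 ± 0.222 in controls (SD, n = 3 each), had groups that narrowly missed each other (-0.16). E2F3 was at 19.6 to 20.8 FPKM in all 6 libraries (0.03), and the repressor E2F8, at 3.38 to 4.61 FPKM, had 0.02. RB1 stood at 18.7, 18.3 and 18.6 FPKM in controls and at 17.6, 17.7 and 19.6 FPKM in overexpression libraries (-0.02, SE 0.07, adjusted p = 0.942), and its relative RBL1 had -0.07. The ratio of E2F3 to E2F1 was 1.15, 1.04 and 1.02 in controls and 1.24, 1.13 and 1.25 in overexpression libraries, with overlap.

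Other genes of the pathway, listed apart from the 60, gave the following picture. Of 32 other replication factors 0 passed the test by limma and 24 were below 0 (median -0.10). Unadjusted p was under 0.05 for 5 lower genes (15.6%) and 1 higher gene (3.12%), beside 7.03% and 5.08% of all genes. DNA2, a helicase and nuclease of Okazaki fragments, stood at 9.71, 10.2 and 11.1 FPKM and at 8.19, 8.13 and 7.25 FPKM (-0.36, SE 0.09, adjusted p = 0.153). The histone chaperone ASF1B stood at 48.2, 54.9 and 55.5 FPKM and at 45.1, 43.2 and 44.4 FPKM (-0.25, SE 0.07, adjusted p = 0.168). Both were lower in every overexpression library. Over these 32 genes, groups did not overlap for 8 lower genes (25%, beside 10.4% of all genes) and 2 higher genes (6.25%, beside 7.61%).

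The 9 genes of dNTP supply, which feed the polymerases, had a median of -0.20, and 8 of them had an estimate below 0. Groups did not overlap for 6 (66.7%), all lower in overexpression libraries, beside 10.4% of all genes. Unadjusted p was under 0.05 for 5 lower genes (55.6%, beside 7.03% of all genes) and 0 higher ones. RRM2, the small subunit of ribonucleotide reductase, stood at 136, 149.9 and 145 FPKM and at 122, 128 and 111 FPKM (-0.25, SE 0.07, adjusted p = 0.155).

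Other E2F, pocket protein and G1 cyclin genes went both ways, with 14 of 23 below 0 (median -0.07) and 0 past the test by limma. Unadjusted p was under 0.05 for 3 lower and 3 higher genes (13% each), beside 7.03% and 5.08% of all genes. FBXW7, the ubiquitin ligase subunit that marks cyclin E for destruction, stood at 15.2, 13.7 and 14.0 FPKM and at 10.8, 11.4 and 11.4 FPKM (-0.33, SE 0.08, adjusted p = 0.129). The D-type cyclin gene CCND3 stood at 38.6, 42.7 and 43.6 FPKM and at 46.9, 47.8 and 49.9 FPKM (0.21, SE 0.06, adjusted p = 0.235). FBXW7 was thus lower and CCND3 higher in every overexpression library. Another D-type cyclin gene, CCND1, went the other way without overlap. It stood at 458, 488 and 469 FPKM and at 433, 428 and 403 FPKM (-0.16, SE 0.05, adjusted p = 0.258). Over this list, groups did not overlap for 4 lower and 4 higher genes (17.4% each), beside 10.4% and 7.61% of all genes.

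The 20 G2/M genes had a median of 0.02, near that of all genes (-0.01), with 13 estimates above 0 and 7 below. The lowest was that of CDK1 (-0.12), and 0 passed the test by limma. An unadjusted p under 0.05 was found for 2 higher genes (10%, beside 5.08% of all genes). It was found for 0 lower ones, beside 7.03% of all genes. AURKA, a spindle pole kinase, stood at 75.1, 69.0 and 71.6 FPKM in controls and at 81.3, 80.5 and 81.2 FPKM in overexpression libraries (log2 change 0.17, SE 0.05, adjusted p = 0.236). CCNB1, the mitotic cyclin B1, stood at 107, 97.6 and 107 FPKM and at 113, 111 and 119.7 FPKM (0.14, SE 0.06, adjusted p = 0.369). Both were higher in every overexpression library. Over the G2/M list, groups did not overlap for 5 higher genes (25%, beside 7.61% of all genes) and 1 lower gene (5%, beside 10.4%). The difference between the replication and the G2/M lists was not tested, since their genes share the same 6 libraries.

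**Figure D5:**
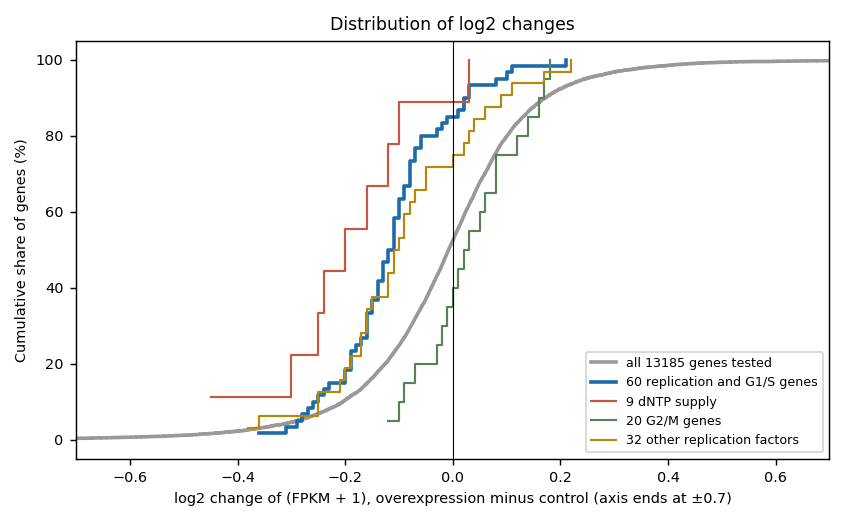
Cumulative share of genes (y, %) against log2 change of (FPKM + 1) (x, ends at ±0.7) for all 13185 tested genes, the 60 replication and G1/S genes and 3 lists of other genes. The curve of the 60 genes runs left of that of all genes (medians -0.12 and -0.01), the dNTP supply genes lie farther left (-0.20) and the G2/M genes slightly right (0.02).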

How the data were processed

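RNA of 6 libraries was sequenced. The deposited table gives FPKM values by the authors, 1 column per library. The submitters' processing notes list hg38 as the build and name RSEM 1.3.1, DESeq2 1.4.5 and Bowtie2. Their roles, the annotation and the strand setting are not stated there. Columns named NC were taken as controls and columns named 207 as overexpression libraries, with the final digit as replicate number, by name alone. Read depth is unknown, since low values showed no common steps (the commonest ratio held for 0.505% of 1981 low genes). Identical values within a group numbered 8 or fewer for every pair of libraries.

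Values were analysed as log2(FPKM + 1), which understates changes of low genes, with limma 3.58.1 in R 4.3.3 (variance trend, two-sided, Benjamini-Hochberg over 13185 genes, threshold 0.05). All adjusted p-values are from this test. It was also run on simulated data in which genes varied independently, which cannot show how it handles shifts shared by genes of a library. Genes described in full were called genes, the 3 smallest p in each step, a fixed set of regulators, the 2 highest estimates and 2 genes of each comparison list. Values of CCND1, DBF4, GINS4, E2F2, E2F3, E2F8, POLD4, POLE3 and POLE4, and the ratios, were picked after the values were seen. Members and lists were chosen with earlier results of these data known. Of the 60 genes, 38 share their listed locus with another row, 17 overlap a gene on the same strand, and 8 have named pseudogenes, so shared fragments make values uncertain. Gene positions are from GENCODE v29, promoters from RefSeq. Some named results are not reported here.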

Additional observations from a re-analysis of the deposited data

How the results depend on the processing

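None of the 60 genes was called under any of 17 alternatives (other pseudocount, filter, scaling, variance model or library weights, the replicate block, each library left out, and 1 chosen after seeing the data that removed trends with level, length and GC content). Their median log2 change stayed between -0.140 and -0.096 and the number below 0 between 48 and 53. The number lower at an unadjusted p under 0.05 was 17, 11 without a variance trend, and 7 to 19 with 1 library left out. Of all genes, 28 were called, but 4 without a filter, 64 with a stricter filter (FPKM 5), 18 as TPM, 18 with median-of-ratios scaling (12 lower and 6 higher under both, and 12 and 8 with quantile scaling, against 21 and 7), 5 without a variance trend, and 4 to 36 with 1 library left out, which leaves fewer samples. With the replicate number as a block 145 were called. Deviations of same-numbered libraries correlated at 0.136, 0.009 and 0.175, so the numbers were not taken to pair them, and not every library correlated best with its own number. Of 697 values of 41 named genes, 7 changed sign, all near 0. They were ORC1 (0.01 without control replicate 3 or overexpression replicate 2, and -0.08 to 0.01 over left-out libraries), POLE (-0.02 with array weights, -0.01 and -0.05 without overexpression replicates 1 and 3, and -0.05 to 0.12 over left-out libraries) and RB1 (0.01 and 0.00 without overexpression replicates 1 and 2, and -0.07 to 0.01 over left-out libraries). Of all 60 genes, 52 kept their sign under every alternative. Outside the named genes, the range over alternatives crossed 0 for ORC2 (-0.02 to 0.08), POLA2 (-0.15 to 0.04) and GINS3 (-0.04 to 0.01). It also did so for POLE3 (-0.02 to 0.05) and E2F8 (-0.07 to 0.10). The cause was not tested. Depth is unknown, and 3 libraries a group limit what changes of this size can show.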
